A study of Mus musculus with 24 samples.

Results

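A group of 9 genes that direct mesoderm formation or posterior patterning were examined in mouse embryonic stem cells. They were the 7 mesoderm regulators Mesp1, Tbx6, Msgn1, Gsc, Hand1, Hand2 and Eomes and the homeobox genes Cdx1 and Cdx2, so 9 of 21887 protein-coding genes of the annotation. The genes were chosen by name. Their data were the chromatin immunoprecipitation (ChIP-seq) peaks whose midpoint lay inside the gene or within 20 kb of it on mm10. Of the 246925 peaks in 16 lists, 112 met that rule, 37 of transcription factors and 75 of the histone mark H3K27ac.

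All lists came from the V6.5 line, labelled as strain C57BL/6-129 and age E3.5. The cells had been kept on irradiated feeder cells with LIF and 15% serum and then expanded on gelatin in 2i, a pair of inhibitors of MEK1 and Gsk3. Asynchronous cultures were growing and mixed in cell cycle stage. Mitotic cells were shaken off after 7 h of nocodazole, a spindle poison, at a dose the labels give as 100 ug/ml. Both states were fixed in 1% formaldehyde for 10 min. There were 3 asynchronous and 3 mitotic libraries for Klf4, and 2 and 2 for H3K27ac. Oct4 and Sox2 had 1 asynchronous and 2 mitotic libraries each, so their asynchronous state has no replicate check. No label says whether libraries came from separate cultures, so the spread between them may be technical.

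Klf4, Oct4 and Sox2 are transcription factors of the pluripotent state, and H3K27ac, acetylated lysine 27 of histone H3, marks active promoters and enhancers. The T-box proteins Eomes and Tbx6, the basic helix-loop-helix proteins Mesp1, Msgn1, Hand1 and Hand2 and the homeobox protein Gsc are switched on as cells leave pluripotency, in the primitive streak, the presomitic mesoderm or the heart and limb fields. Eomes and Cdx2 also act in the trophoblast, the outer lineage of the early embryo, and Cdx1 and Cdx2 pattern the posterior body axis and the intestine.

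The deposited lists differed in length. Klf4 lists held 10575 to 21307 peaks in the asynchronous and 3795 to 8438 in the mitotic state, and H3K27ac lists 46491 to 47475 and 30771 to 36526. Oct4 lists held 1246 to 5282 peaks and Sox2 lists 1940 to 4537. The labelled cell type was checked with 14 genes of naive pluripotency, all of which had asynchronous Klf4 and H3K27ac regions within 20 kb. Of all genes 50.6% had such a Klf4 region and 69.5% such an H3K27ac region. Among 8 markers of fibroblast feeders 3 had such a region of each, 37.5%. Among 6 markers of neural progenitors 4 had a Klf4 region (66.7%) and 5 an H3K27ac region (83.3%). Both shares exceed those of all genes, so a region by a marker does not by itself tell cell types apart. Read depth is unknown, and a list without a peak does not show that a site was unbound. Because ChIP pools cells, a weaker signal in every cell and a signal in fewer cells cannot be told apart.

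The promoter windows of 3 genes are shown because they stand for the 3 patterns that follow. Gsc had H3K27ac across its start in growing cells, Eomes had acetylation inside the gene, past the window, in both states, and Cdx2 had no peak in the window. Each window runs 5′ to 3′ on the strand of the gene, from 250 bases before to 50 after the start (RefSeq, GRCm38.p6). Capitals mark CACCC or its reverse GGGTG, the core of the sequence Klf4 prefers, and the octamer ATGCAAAT or its reverse ATTTGCAT, which Oct4 prefers.
Gsc, chr12:104473187-104473486, minus strand: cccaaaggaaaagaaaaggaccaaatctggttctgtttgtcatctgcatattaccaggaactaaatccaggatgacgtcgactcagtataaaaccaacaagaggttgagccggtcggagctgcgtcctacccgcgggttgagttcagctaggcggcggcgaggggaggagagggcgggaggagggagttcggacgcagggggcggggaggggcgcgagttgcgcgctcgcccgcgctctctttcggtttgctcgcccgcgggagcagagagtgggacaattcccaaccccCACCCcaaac
Eomes, chr9:118477939-118478238, plus strand: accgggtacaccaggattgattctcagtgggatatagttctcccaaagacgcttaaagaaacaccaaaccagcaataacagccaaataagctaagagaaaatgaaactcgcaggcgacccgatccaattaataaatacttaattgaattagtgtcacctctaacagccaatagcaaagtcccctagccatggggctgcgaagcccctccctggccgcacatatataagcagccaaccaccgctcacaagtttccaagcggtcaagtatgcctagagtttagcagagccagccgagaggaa
Cdx2, chr5:147307200-147307499, minus strand: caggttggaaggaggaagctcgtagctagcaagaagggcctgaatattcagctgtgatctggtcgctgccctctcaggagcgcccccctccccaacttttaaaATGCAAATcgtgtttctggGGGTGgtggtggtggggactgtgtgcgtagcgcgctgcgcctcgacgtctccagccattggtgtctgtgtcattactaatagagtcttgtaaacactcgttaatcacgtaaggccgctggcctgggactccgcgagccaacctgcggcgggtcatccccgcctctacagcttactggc

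Promoter windows were found for 7 of the 9 genes, and those of Hand1 and Cdx1 were not used here. The Gsc window was rich in CpG, with 25 of them and 60.3% G and C, and peaks of both asynchronous H3K27ac libraries overlapped it. The Eomes window had 10 CpG and no overlapping peak, and the nearest H3K27ac peak, of asynchronous library 1, began after a gap of 54 bp. The Cdx2 window had 18 CpG, and its nearest peak lay 2582 bp away. CACCC or GGGTG occurred in 3 of the 7 windows, those of Msgn1, Gsc and Cdx2, against 57.5% of 32851 windows of all genes. The octamer occurred in 1 of 7, that of Cdx2, against 1.74% of all windows. ACAAT or its reverse ATTGT, the core of the sequence Sox2 prefers, occurred in 1 of 7, that of Gsc, against 31%. The letters describe the sequence and do not show that a factor was bound there.

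The factor lists held few peaks by these genes, and nearly all were of Klf4. In the 3 asynchronous Klf4 libraries the counts of peaks by all 9 genes were 5, 13 and 9, and in the 3 mitotic ones 4, 1 and 1. Per 1000 peaks on the list these came to 0.473, 0.610 and 0.547 against 0.695, 0.264 and 0.119, so the states overlapped once the length of the lists was taken into account. Oct4 had 0 peaks in its asynchronous list and 0 and 1 in its mitotic lists. Sox2 had 2 in its asynchronous list and 1 and 0 in its mitotic lists. H3K27ac had 27 and 27 asynchronous peaks and 12 and 9 mitotic ones, or 0.569 and 0.581 against 0.329 and 0.292 per 1000 listed peaks, without overlap.

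**Figure D1:**
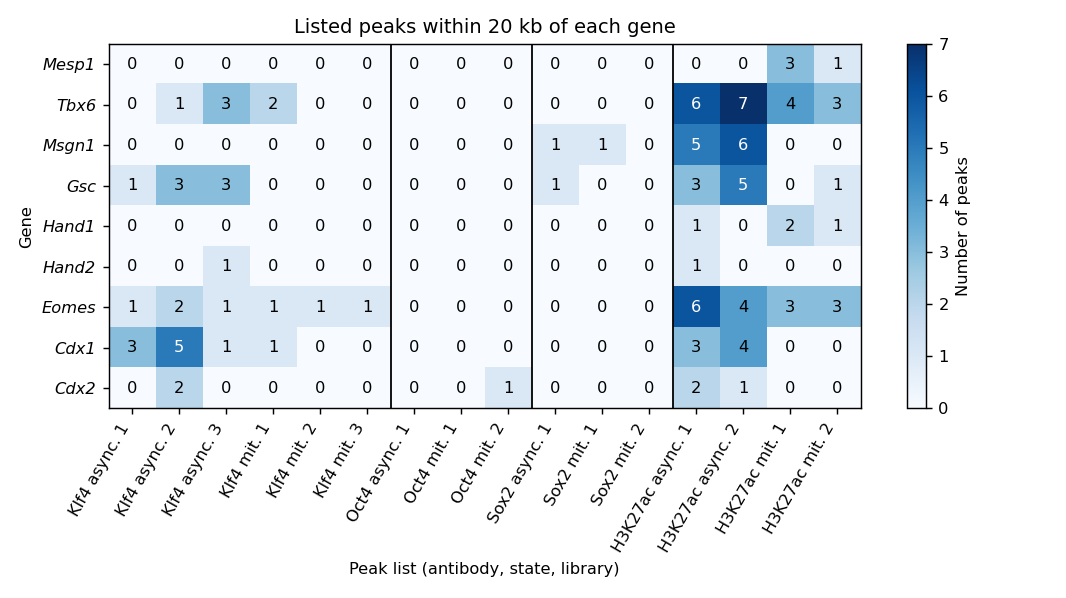
Number of listed peaks within 20 kb of each gene (rows) in each of the 16 libraries (columns, by antibody and state), written in each cell; a darker cell holds more. Most peaks are of H3K27ac, Klf4 peaks cluster at Gsc, Eomes, Cdx1 and Tbx6, and Mesp1 and Hand1 have no factor peak in any list.

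Peaks of 1 antibody were merged into regions where they shared at least 1 bp. The asynchronous set held regions listed in at least 2 of 3 asynchronous libraries for Klf4, in both for H3K27ac and in the single one for Oct4 and Sox2. Of these, kept regions were listed in 2 or more mitotic libraries, lost regions in none, and the rest were intermediate. A mitotic-only region was listed in at least 2 mitotic and no asynchronous libraries.

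An asynchronous Klf4 region lay within 20 kb of 4 of the 9 genes (Tbx6, Gsc, Eomes and Cdx1), against 50.6% of all genes, and a kept one by Eomes alone, against 21.9%. No asynchronous Oct4 region lay by any of the 9 (all genes 13.6%), nor a kept one (3.33%). Asynchronous Sox2 regions lay by 2, Msgn1 and Gsc (10.9%), and kept ones by none (4.44%). Asynchronous H3K27ac regions lay by 6, all but Mesp1, Hand1 and Hand2 (69.5%), whereas kept ones lay by 2, Tbx6 and Eomes (55.7%). Mitotic-only H3K27ac regions lay by 3, Mesp1, Hand1 and Eomes (20.9%). Mitotic-only regions of Klf4, Oct4 and Sox2 lay by none of the 9, against 0.562%, 1.11% and 1.28% of all genes.

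Of 9 asynchronous Klf4 regions by these genes 1 was kept, 3 were intermediate and 5 were lost, against 26.9% kept and 44% lost of all 13982. None of the single Klf4 region listed in at least 2 mitotic libraries was mitotic-only (2.33% of all such regions). The 9 regions had a median width of 329 bp against 430 bp over all, and 5 of 9 overlapped the asynchronous H3K27ac set against 70.6% of all. Both Sox2 regions were short of the kept call, 1 being intermediate and 1 lost, against 40.9% kept and 28.4% lost of 2972. No Sox2 region by the 9 genes was in both mitotic lists, so none could be mitotic-only (25.7% of all such regions). With no asynchronous Oct4 region by the 9 genes there was nothing to keep or lose, where over 3338 regions 24.6% were kept and 36.2% lost, and 26.4% of those in both mitotic lists were mitotic-only.

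Of 17 asynchronous H3K27ac regions 5 were kept, 2 intermediate and 10 lost, against 46.1% kept and 39.4% lost of 32482. Of 8 regions in both mitotic libraries 3 were mitotic-only, against 26.7% of 21652. The calls are split here by which gene lay nearest. Where the member was the nearest gene, 11 regions gave 2 kept, 1 intermediate and 8 lost. Where another gene was nearer, 6 regions gave 3 kept, 1 intermediate and 2 lost, and those 3 kept regions all lay at Ppp4c and Aldoa in the window of Tbx6.

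**Figure D2:**
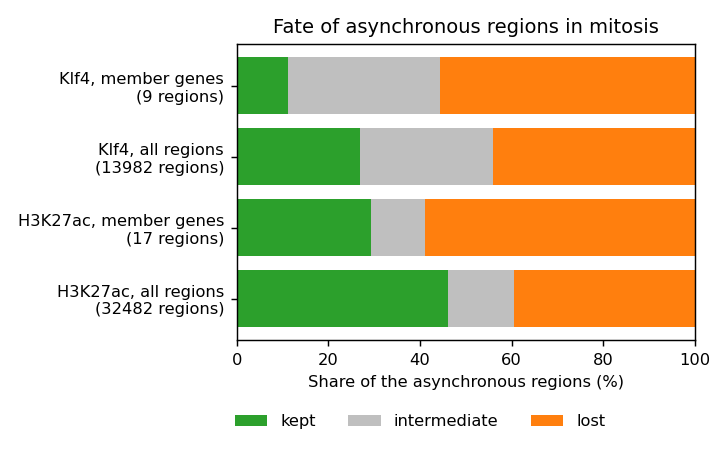
Share of asynchronous regions (x axis, %) that were kept (green), intermediate (grey) or lost (orange) in mitosis, for Klf4 and H3K27ac, by the 9 genes and over all regions; bars start at 0 and rest on 9 and 17 regions for the 9 genes. Lost regions take 55.6% for Klf4 and 58.8% for H3K27ac by the 9 genes, against 44% and 39.4% over all.

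These counts moved with the number of libraries and the length of the lists. Without Klf4 asynchronous library 2 the Klf4 set by the 9 genes fell from 9 regions to 2, with 1 lost, and without library 3 to 5, with 3 lost. Both libraries left were then needed, which by construction shrinks a set, and the fall over all Klf4 regions was not counted. Without library 1, 3 regions rather than 5 were lost. H3K27ac calls also moved, since 1 library left alone needs no second: without asynchronous library 1 or 2 there were 27 and 26 regions, 20 and 18 of them lost, and without mitotic library 2 there were 5 mitotic-only regions. For Sox2, 1 region was kept without mitotic library 2, and both were lost without library 1. With lists cut to equal length the Klf4 set by the 9 genes held 1 region, by Cdx1, which was neither kept nor lost, where over all 3235 Klf4 regions 47.7% were kept, 25.7% were lost and 18.4% of those in at least 2 mitotic lists were mitotic-only. The same cut left 11 H3K27ac regions by these genes, 5 kept and 4 lost, against 57.8% and 27.7% of 23012, and the 3 mitotic-only regions against 31.2% of 20526. The titles carry codes, taken here as projects, and 2 of the 3 mitotic Klf4 libraries have a code that no asynchronous one has. In the project with Klf4 in both states, 1 asynchronous list of 16455 peaks stood against 1 mitotic list of 8438. There 9 regions gave 1 kept and 8 lost, but the share over all regions of that project was not counted, so these counts have no background. The H3K27ac states have different codes, so that state and project cannot be told apart in any H3K27ac comparison.

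Gsc, a homeobox gene of the organizer region of the gastrula, was the 1 gene of the 9 with lost regions of 3 antibodies, Klf4, Sox2 and H3K27ac. The share of all genes with such lost regions was not counted. Over all asynchronous regions 44%, 28.4% and 39.4% were lost for these 3 antibodies in turn. With lists cut to equal length no lost Klf4 or Sox2 region remained by any of the 9, while lost H3K27ac regions by Gsc remained. Klf4 peaks covered 245, 439 and 1296 bp of its window in the asynchronous libraries and 0 bp in all 3 mitotic ones. Every asynchronous library was above every mitotic one, as for 18.6% of 14804 genes with a Klf4 peak. The mean difference was 660 bp, with p = 0.1 in the two-sided exact permutation test (the smallest that 3 against 3 libraries can give) and 0.536 after Benjamini-Hochberg adjustment over all genes. At no other gene of the 9 except Cdx1 were the Klf4 states apart, and none had the mitotic state on top (0.0338% of all genes).

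All 3 Klf4 regions by Gsc were lost. The farthest, chr12:104452956-104453447, lay 18.0 kb beyond the 3′ end and had deposited folds over local background of 4.24, 2.95 and 5.94. The one at chr12:104475403-104475915, 2.42 kb upstream of the start, had folds of 2.60 and 4.65 in libraries 2 and 3. The third, chr12:104485125-104485415, 12.0 kb upstream, had 2.69 and 5.50 there. In the same order the −log10 q values were 1.87, 3.67 and 6.93, then 2.29 and 5.26, then 2.29 and 4.81. With a −log10 q of at least 5 none of the 3 was listed in 2 libraries, so none stayed in the asynchronous set. Folds are the authors' values for each peak and are not comparable between Klf4 lists, whose medians ran from 3.29 in asynchronous library 2 to 5.42 in library 3.

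The far 3′ site of Gsc carried 3 signals in growing cells. A Sox2 region, chr12:104453064-104453201, fold 4.69, lay inside the Klf4 region and was also lost. It was a weak peak of the only asynchronous Sox2 list, with a −log10 q of 1.91 and a fold at the 13.6 percentile of that list. Acetylated regions flanked and overlapped it: chr12:104451759-104453225 had folds of 10.0 and 9.73 and chr12:104453327-104454868 had 10.7 and 12.0 in the asynchronous libraries, with no mitotic peak. At the start of the gene itself, chr12:104471702-104475546 had 10.7 and 12.0 in asynchronous cells and 4.61 in mitotic library 2 alone, so it was intermediate. H3K27ac covered 6614 and 5628 bp of the window in asynchronous and 0 and 351 bp in mitotic libraries.

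**Figure D3:**
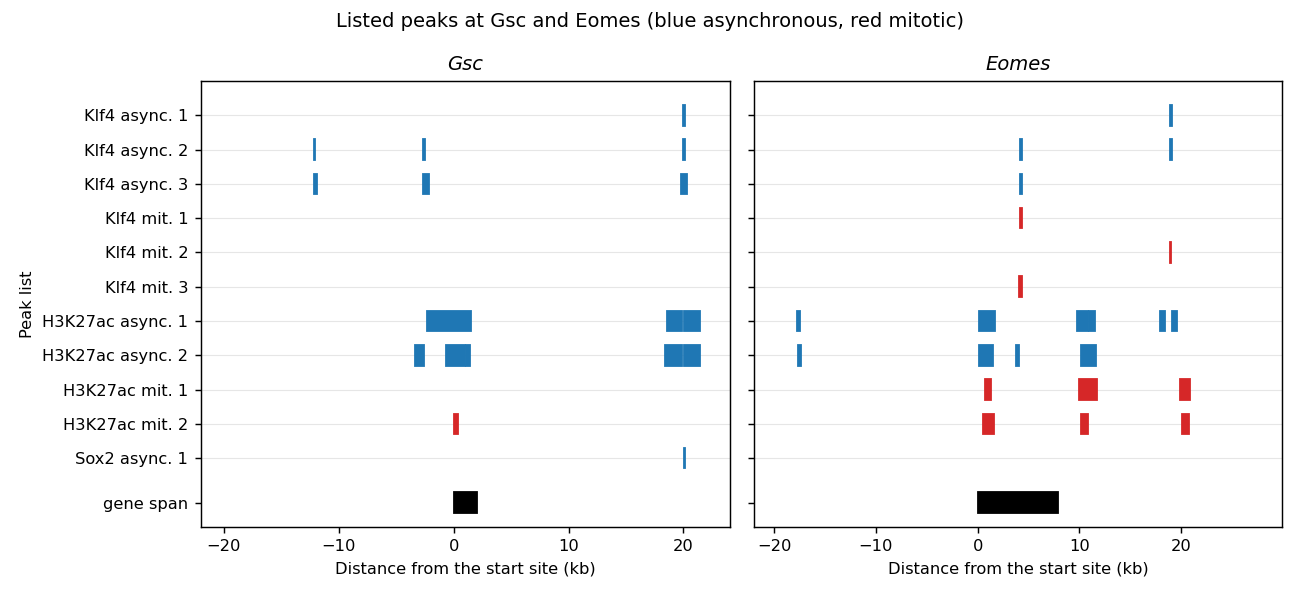
Listed peaks at Gsc (left) and Eomes (right) by distance from the start site in kb (x axis, direction of transcription to the right), with 1 row per Klf4 or H3K27ac library and 1 for asynchronous Sox2; blue is asynchronous, red is mitotic and the gene is black. At Gsc the 1 mitotic peak is of H3K27ac at the start, whereas at Eomes both states have Klf4 and H3K27ac peaks.

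Eomes, the T-box gene that starts mesendoderm and trophoblast programmes, behaved differently, with peaks of both states in its window. It was the gene with the most factor lists, 6 of 12, all of them Klf4. Klf4 covered 201, 416 and 208 bp in asynchronous and 201, 67 and 279 bp in mitotic libraries. These ranges overlapped (exact permutation p = 0.5, adjusted 0.772). The kept Klf4 region, chr9:118482297-118482575, lay inside the gene, 4.25 kb from its start. Its folds were 3.29 and 4.67 in asynchronous libraries 2 and 3 and 4.39 and 4.78 in mitotic libraries 1 and 3. A kept call needs 2 libraries of each state, and the region was listed in just these 4. Without any 1 of them it was therefore, by construction, no longer called kept. A second region, chr9:118497058-118497325, 11.1 kb past the gene and nearer to Golga4, was intermediate with 6.93 and 4.36 in asynchronous libraries 1 and 2 and 5.39 in mitotic library 2.

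Acetylation inside Eomes, just past its start, was listed in both states. The region chr9:118478292-118479869 had a fold of 8.69 and 8.32 in the asynchronous lists and of 4.65 and 5.76 in the mitotic lists, a mean log2 of 3.09 ± 0.04 against 2.37 ± 0.22 (SD, n = 2 each). Asynchronous folds were higher by 0.72 on the log2 scale (exact permutation p = 0.33, the smallest that 2 against 2 can give, adjusted 0.385). Over the 14962 H3K27ac regions listed in every library the median difference was 0.81, and this region stood at the 44.3 percentile. A second region 3′ of the gene, chr9:118487922-118489888, had 4.90 and 8.60 against 6.40 and 4.00, so the states overlapped. Farther out, chr9:118460490-118460884 was lost, with 4.04 and 5.49 in asynchronous cells. H3K27ac covered 4342 and 3554 bp of the window against 3255 and 2425 bp.

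Tbx6, a T-box gene of the presomitic mesoderm, lies among 5 close neighbours, Mapk3, Gdpd3, Ypel3, Ppp4c and Aldoa, and most peaks in its window sat on those. H3K27ac covered 7927 and 7526 bp in asynchronous and 5600 and 5486 bp in mitotic libraries. The strongest region, chr7:126796724-126799414 at the glycolytic gene Aldoa, had a fold of 33.4 and 30.7 in the asynchronous lists and of 5.75 and 6.05 in the mitotic lists. That was 5.43-fold lower in mitosis, a log2 difference of 2.44 at the 99.8 percentile of 14962 regions listed in all 4 libraries, whose median difference was 0.81 (exact permutation p = 0.33, adjusted 0.385). Next to it, chr7:126799437-126801344 had 13.4 and 12.3 against 6.57 and 6.05. At Ppp4c, chr7:126790908-126793345 had 22.1 and 18.9 against 18.9 and 19.9, with no separation of the states (log2 difference 0.08, exact permutation p = 0.667, adjusted 0.704).

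Close to Tbx6 itself signal was thin. Its start had 1 short peak, chr7:126780997-126781239, in H3K27ac asynchronous library 2 with a fold of 4.07, and no mitotic peak. The region toward Ypel3, chr7:126776317-126777462, was intermediate, with 8.36 and 6.90 in asynchronous and 4.65 in mitotic library 1. The 1 asynchronous Klf4 region, chr7:126792326-126792654, lay in Ppp4c and was intermediate, with 2.40 and 4.69 in asynchronous libraries 2 and 3 and 4.81 in mitotic library 1.

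Across the 5 H3K27ac regions by these genes listed in all 4 libraries, asynchronous folds were above mitotic ones without overlap in 3, against 78% of all such regions, and mitotic ones were above in 0, against 8.57%. No Klf4 region by the 9 genes was in all 6 libraries, where 14.4% of 1243 such regions had the asynchronous and 0.483% the mitotic folds on top.

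**Figure D4:**
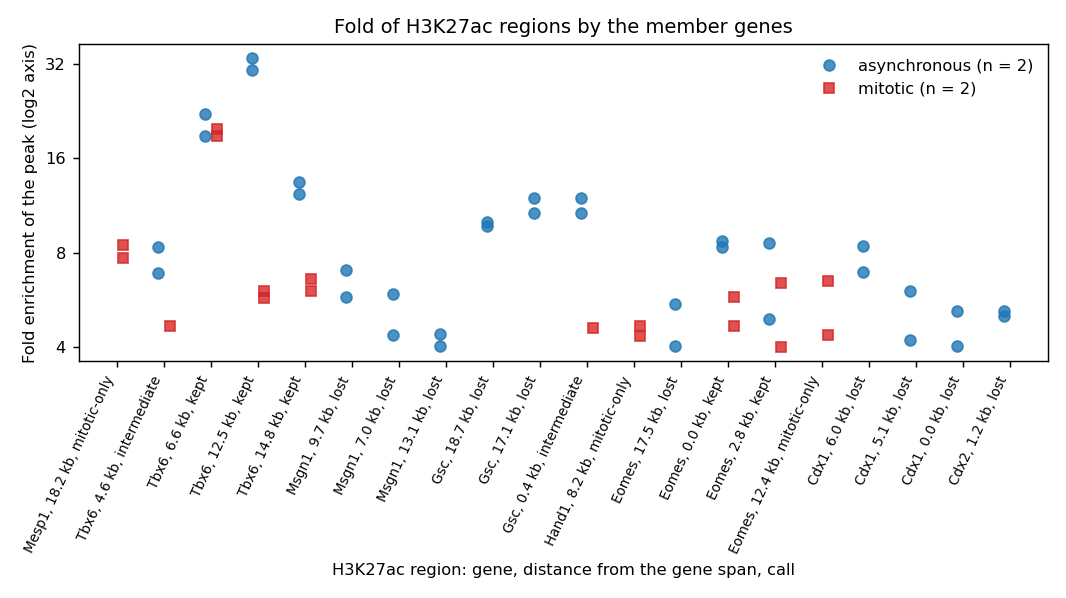
Deposited fold over local background (y axis, log2 scale) of the asynchronous and mitotic-only H3K27ac regions by the 9 genes (x axis, with distance from the gene and call), 1 point per library that listed the region, circles asynchronous and squares mitotic. The strongest region, in the Tbx6 window at Aldoa, has 33.4 and 30.7 against 5.75 and 6.05, while the one at Ppp4c has mitotic points between the asynchronous ones or level with the lower.

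Msgn1, which drives presomitic mesoderm together with Tbx6, has no neighbour within 20 kb and had no Klf4 or Oct4 peak. H3K27ac covered 5469 and 3375 bp of its window in asynchronous cells and 0 bp in both mitotic libraries. All 3 of its acetylated regions were lost. The widest, chr12:11197477-11199886, had 7.03 and 5.77, chr12:11215429-11216435 had 5.89 and 4.36, and chr12:11221786-11222349 had 4.04 and 4.40. Between the latter pair lay a Sox2 region, chr12:11216473-11216935, 7.76 kb upstream of the start. It was listed in the asynchronous library with a fold of 6.25 and in mitotic library 1 with 7.65, but not in mitotic library 2, whose list was the shortest of the 3.

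Cdx1, a caudal-type homeobox gene, had peaks at its boundary with Gm52351 and at the neighbour Slc6a7. Klf4 covered 961, 1620 and 302 bp in asynchronous and 187, 0 and 0 bp in mitotic libraries, again without overlap (exact permutation p = 0.1, the smallest possible, adjusted 0.536). Of its Klf4 regions, chr18:61034739-61035258 inside the gene was lost (4.62 and 3.12 in asynchronous libraries 1 and 2). So was chr18:61036110-61036412, which overlaps the boundary of the gene with the higher coordinate (6.23 and 4.24). The third, chr18:61013755-61014386 in Slc6a7, had 6.55, 5.10 and 5.27 in asynchronous cells and 6.26 in mitotic library 1. H3K27ac covered 2359 and 2644 bp in asynchronous and 0 bp in mitotic libraries, and its 3 regions were lost. The strongest, chr18:61012509-61013170, had 6.95 and 8.38.

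Cdx2, the homeobox gene that specifies trophectoderm, had 1 lost H3K27ac region, chr5:147299361-147300126, 1.16 kb past its 3′ end, with 5.03 and 5.20. The mark covered 675 and 427 bp in asynchronous and 0 bp in mitotic cells. Klf4 peaks were listed in asynchronous library 2 alone, where they covered 321 bp. The 1 Oct4 peak by any of the 9 genes lay inside Cdx2, chr5:147304362-147304618, in mitotic library 2 only, with a fold of 5.43 and a −log10 q of 4.52.

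Hand1, Hand2 and Mesp1, regulators of heart and early cardiac mesoderm, had almost no signal in growing cells. Hand2 had a Klf4 peak of fold 6.45 in asynchronous library 3 and an H3K27ac peak just past its start of fold 4.04 in asynchronous library 1, and 0 bp of either in mitosis. Hand1 had 341 and 0 bp of H3K27ac in asynchronous and 1112 and 646 bp in mitotic libraries. Mesp1 had 0 bp in both asynchronous and 3080 and 2314 bp in both mitotic libraries. Hand1 and Mesp1 were thus the 2 genes whose mitotic values lay above the asynchronous ones, against 22% of 17203 genes with the mark, while 6 genes had the asynchronous values above, against 53.4%. With lists cut to equal length that count was 4, since the states overlapped at Eomes and Cdx2. All 8 had an exact permutation p of 0.33 and an adjusted p of 0.442, so no comparison of 2 against 2 libraries could reach 0.05.

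**Figure D5:**
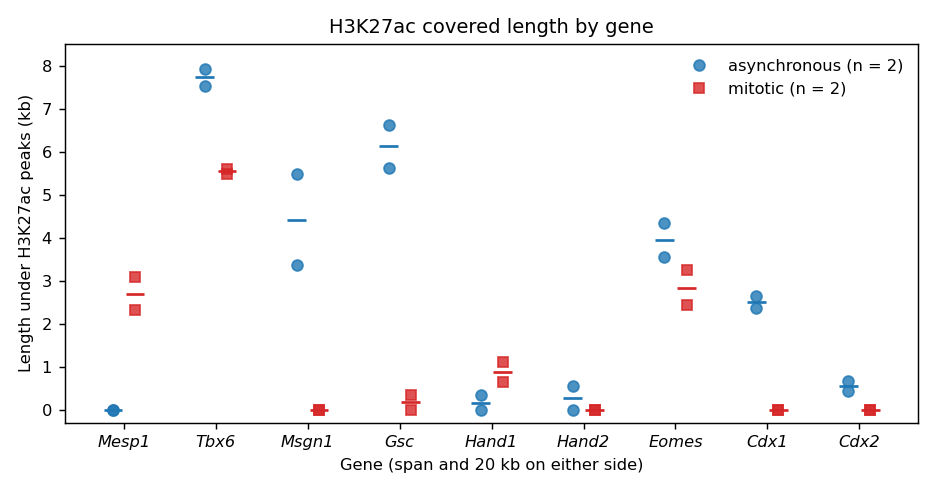
Length under listed H3K27ac peaks (y axis, kb) in the window of each gene, with 1 point per library, circles asynchronous, squares mitotic and a short line at the mean. The 2 asynchronous points lie above both mitotic points at Tbx6, Msgn1, Gsc, Eomes, Cdx1 and Cdx2, and below them at Mesp1 and Hand1.

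The 3 mitotic-only H3K27ac regions differed in how far they stood from any asynchronous peak. The one by Mesp1, chr7:79810591-79812904, had folds of 7.66 and 8.44 and lay in Mesp2, the partner gene of Mesp1 in the same cluster, 18.2 kb from Mesp1. The nearest asynchronous H3K27ac peak was 54186 bp away. Inside Mesp1, mitotic library 1 alone had a peak of fold 3.78. By Hand1, chr11:57820159-57820857 had 4.65 and 4.32 at 8.21 kb from the gene, and the nearest asynchronous peak was 5878 bp away. By Eomes, chr9:118498072-118499012 had 4.38 and 6.47, lay nearest to Golga4, and had an asynchronous peak of fold 4.75 only 325 bp away, in library 1.

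The edge of the 20 kb window cut through some of these loci. Just inside lay the Sox2 region by Gsc at 18.1 kb and H3K27ac regions by Mesp1 at 18.2 kb and by Gsc at 18.7 kb. Just outside lay kept H3K27ac regions at 20.4 kb from Eomes and 20.6 kb from Msgn1 and a lost one at 21.0 kb from Gsc.

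Other genes of mesoderm and primitive streak, a list of 26, were close to the rest of the genome in asynchronous cells. Within 20 kb an asynchronous Klf4 region lay by 13 of them (50% against 50.6% of all genes), an Oct4 region by 4 (15.4% against 13.6%), a Sox2 region by 2 (7.69% against 10.9%) and an H3K27ac region by 18 (69.2% against 69.5%). A kept Klf4 region lay by 4 (Wnt3a, Dll3, Evx1 and Cdx4), 15.4% against 21.9% of all genes. Kept Oct4 and Sox2 regions lay by 2 each (Dll1 and Cdx4 for both), 7.69% against 3.33% and 4.44%. A kept H3K27ac region lay by 8, 30.8% against 55.7%. Cdx4, the X-linked relative of Cdx1 and Cdx2, was named after its values were seen: it had kept regions of all 4 antibodies, where Cdx1 and Cdx2 had none. The share of all genes with kept regions of all 4 was not counted. No test was made over these lists.

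The genes with a pattern of peaks most like that of Eomes, by Euclidean distance of square-root peak counts over the 16 libraries, were Cdc5l at 0.538 and Hcn2 and Ftsj3 at 0.587 each. They were the nearest of 5082 genes with the same antibodies and states present, whose median distance was 1.95.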

How the data were processed

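Reads were processed with cutadapt 1.8.1, Bowtie2 2.2.5 and deepTools 2.3.6 against mm10, and peaks came from MACS2 2.1.1, per the submitters' processing notes. Each deposited list held the peaks of 1 library, every one with a −log10 p of at least 5. The authors' deposited values were a fold (a ratio over local background) and p and q as −log10 values. The depth was not given in the sources used here.

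Python 3.11.15 with pandas 2.3.3, numpy 2.4.6 and matplotlib 3.10.9 was used on the 16 stem cell lists, and the Klf4 mix of stem cells and neural progenitors was left out. Gene spans came from RefSeq GRCm38.p6. Covered length by gene and log2 fold by region were compared between states with two-sided exact permutation tests over libraries, with Benjamini-Hochberg adjustment over all genes or regions, after a check on simulated data. The named regions were all asynchronous regions of the factors, all mitotic-only regions and the strongest H3K27ac region of each gene, and further H3K27ac regions were named after their values were seen. The genes and lists were chosen with earlier results of these data known. Alternatives were windows of 10 and 50 kb, linking by overlap or by peak, a −log10 q of at least 5, lists of equal length, merging at 50% overlap, a kept call from any mitotic library, 1 project, and runs without each library.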

Additional observations from a re-analysis of the deposited data

How the results depend on the processing

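The region counts followed the window and the threshold, and with lists of equal length kept H3K27ac regions outnumbered lost ones (5 against 4). For Klf4 the asynchronous set, kept and lost counts of 9, 1 and 5 became 15, 2 and 10 at 50 kb, 3, 0 and 2 with a −log10 q of at least 5, and 1, 0 and 0 with lists of equal length. Lost Klf4 regions were 3 at 10 kb and 8 in the shared project, and kept ones were 4 when any mitotic library sufficed, which also gave 1 kept Sox2 region. For Oct4 the set and the lost count became 1 and 1 at 50 kb. For Sox2 they became 1 and 0 at 10 kb, 0 and 0 with the stricter q, and 1 and 0 with equal lists. For H3K27ac the set, kept and lost counts of 17, 5 and 10 became 11, 3 and 6 at 10 kb, with 1 mitotic-only region, and 28 and 8 (set and kept) at 50 kb. Lost ones were 5 with the stricter q, and with equal lists the set was 11 and lost 4.

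Leaving out each library gave Klf4 sets of 2 to 9, kept 0 to 1 and lost 1 to 7, Oct4 mitotic-only 0 to 1, Sox2 kept 0 to 1 and lost 1 to 2, and H3K27ac sets of 17 to 27, kept 5 to 6, lost 11 to 20 and mitotic-only 3 to 5. With 1 library of a state left, a peak in it sufficed, which by construction enlarges a set. With 2 Klf4 libraries of a state left, both were needed, which by construction lowers the set or the kept count. Oct4 and Sox2 without their only asynchronous library were not run.

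Genes with all asynchronous Klf4 lengths above the mitotic ones fell from 2 to 1 at 10 kb and to 0 with the stricter q or equal lists. Genes with asynchronous H3K27ac lengths above fell from 6 to 4 with equal lists, without Eomes (136 bp) and Cdx2 (213.5 bp). Genes with mitotic H3K27ac lengths above fell from 2 to 1 at 10 kb, 50 kb and the stricter q. Reversed differences, asynchronous minus mitotic, were Klf4 at Eomes (-41.3 bp at 10 kb, -22.3 bp with equal lists), H3K27ac at Hand1 (796 bp at 50 kb), and the log2 folds at Ppp4c (-0.035 without asynchronous library 1, range to 0.188) and 3′ of Eomes (-0.0464 without asynchronous library 2, range to 0.767). In the list of 26 mesoderm genes, the stricter q left 6 with an asynchronous and 0 with a kept Klf4 region, 2 and 1 for Oct4 and 10 with an asynchronous H3K27ac region, while 7 had a kept Klf4 region at 50 kb and 1 a kept Oct4 region at 10 kb. The causes were not tested. H3K27ac libraries share replicate numbers, but deviations of same-numbered libraries correlated at 0.0142 over 17203 genes, and with the replicate block 6 and 2 genes had the asynchronous and mitotic lengths above, as without it (the smallest p of 2 pairs is 0.5). Unknown depth limits every absent peak.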

Other observations

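Genes of the other early lineages were counted in the same way, with no test. Of 8 trophoblast genes 7 had an asynchronous Klf4 region within 20 kb and the same number an H3K27ac region, 87.5% against 50.6% and 69.5% of all genes. A kept region of each lay by 4, 50% against 21.9% and 55.7%. Kept Klf4 regions lay by Tfap2c, Tead4, Ets2 and Krt8. Tfap2c, which encodes an AP-2 factor of trophoblast and germ cells, also had a kept Sox2 region. Among endoderm genes, Gata6, Sox7, Foxa1, Hhex and Cxcr4 each had an asynchronous Klf4 region and no kept one, and Hhex had a kept H3K27ac region. Mitotic-only H3K27ac regions lay by 2 of 12 endoderm genes, the zinc finger genes Gata4 and Gata6, which is 16.7% against 20.9% of all genes. Of the 26 mesoderm genes 7 had one (Mesp2, Wnt3, Wnt3a, Foxc2, Foxf1, Pdgfra and Cdx4), which is 26.9%. The region by Mesp2 is the one also linked to Mesp1.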
